A study of Arabidopsis thaliana with 24 samples.

Results

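The RPP5 cluster is a tandem array of immune receptor genes on chromosome 4 of the thale cress Arabidopsis thaliana. Its 8 members, chosen by locus identifier from the 32961 nuclear gene rows of the table, are RPP4 (AT4G16860), AT4G16880, SNC1 (AT4G16890), AT4G16900, AT4G16920, AT4G16940, RPP5 (AT4G16950) and AT4G16960. All lie on the minus strand between chr4:9488466 and chr4:9551028, a stretch of 62.6 kb whose coordinates are those of TAIR10 and are the same in TAIR10.1 for 8 of 8 members. The 14 transposable element rows between the first and the last member, of 31189 nuclear transposable elements in all, were read with them. All 8 members kept at least 10 cytosine calls in every pool and context, so none was lost to that minimum.

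Bisulfite sequencing gave the DNA methylation of nuclei of accession Col-0, in which a cytosine that resists conversion is called methylated. Plants of the mutants ago5, ago9 and ago59 and of the wild type wt21 gave 2 kinds of sorted nuclei. Sperm nuclei came from pollen of plants aged 35 days, with 50000 nuclei per replicate. Stem-cell nuclei came from seedlings aged 7 days and were sorted for mCherry, with 3000 to 4000 nuclei per replicate. The labels name no allele for any mutant and do not spell out ago59, which joins the names of ago5 and ago9. They list 24 samples with 2 replicate names per group, and 8 samples repeat the name of a stem-cell replicate, but the table holds 1 column per group and context. Each group is therefore a single pool, no value has a replicate spread, and no difference has a test. Square brackets hold 95% intervals for counting error only, Wilson intervals for levels and Newcombe intervals for differences. They are too narrow, because 1 read gives several calls that depend on each other. A pool is a mixture of nuclei, so a level of 50% cannot be told apart from full methylation in a part of the nuclei. Cell type cannot be told apart from organ, age and sorting.

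Genes of this family encode receptors with a TIR domain, a nucleotide-binding domain and leucine-rich repeats, which start defence through EDS1 when they sense a pathogen. Small RNAs from the cluster are known to hold its expression down, and overactive receptors stunt the plant. ARGONAUTE proteins bind small RNAs, and some of them guide the methylation of matching DNA. Methylation in CG is copied by a maintenance enzyme, methylation in CHG is tied to histone marks of silent chromatin, and methylation in CHH, where H is any base but G, has to be set anew.

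The members are similar in sequence. Their coding sequences are 75.6% to 95.9% identical by pair, with AT4G16940 and AT4G16960 at 95.9% and AT4G16920 and RPP5 at 93.8%. AT4G16940 and AT4G16960 share an unbroken run of 1754 identical bases, and AT4G16920 and RPP5 share one of 1729. RPP4 shares its longest run, 230 bases, with AT4G16940 and AT4G16960. That run lies at chr4:9495177-9495406 in RPP4 and chr4:9537113-9537342 in AT4G16940, and recurs at chr4:9550478-9550707 in AT4G16960 (TAIR10.1, RefSeq). In RPP4 it spans the end of the first coding exon and the start of the intron after it. It is shown because a read that lies wholly inside it cannot be placed by sequence, and is printed on the plus strand with CG sites in capitals.
RPP4 and AT4G16940: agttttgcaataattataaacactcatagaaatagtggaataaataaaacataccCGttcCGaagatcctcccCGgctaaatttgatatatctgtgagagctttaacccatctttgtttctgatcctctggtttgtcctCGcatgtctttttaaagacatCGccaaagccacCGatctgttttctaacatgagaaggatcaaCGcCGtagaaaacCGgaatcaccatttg
Its 18 CG cytosines on both strands are shared by RPP4, the most methylated member, and AT4G16940, one of the least methylated.

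After conversion of C to T in silico, windows of 100 bases that recur elsewhere in the genome made up 10.2% of RPP4, 4.59% of AT4G16880, 8.65% of SNC1 and 5.69% of AT4G16900. They made up 27.3% of AT4G16920, 25.8% of AT4G16940, 36.9% of RPP5 and 47.7% of AT4G16960. In the wt21 sperm pool the depth was lowest in RPP4 at 3.30 calls per cytosine and highest in AT4G16880 at 6.85, and RPP5 and AT4G16960 had 3.70 and 3.45. The 8 members together held 64138 to 101538 calls per pool. How reads with several matches were treated is not given in the sources used here, so the part that shared sequence plays in any level was not tested.

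RPP4 carried the highest methylation of the cluster in all 8 pools and all 3 contexts. RPP4 is one of the receptors that give Col-0 resistance to downy mildew. Its CG level was 70.4%, 69.5%, 72.6% and 68.1% in ago5, ago9, ago59 and wt21 sperm, and 59.9%, 57.6%, 62.7% and 61.9% in the stem-cell pools of the same genotypes. The 4 sperm values lay above the 4 stem-cell values without overlap. Its CHG level was 44.2%, 48.1%, 47.9% and 48.7% in ago5, ago9, ago59 and wt21 sperm, and 44.5%, 46.1%, 45.2% and 40.9% in the stem-cell pools. Here the cell types overlapped, because the ago5 sperm value lay below 3 of the stem-cell values. RPP4 rested on 658 to 1083 CG calls and 745 to 1237 CHG calls per pool. In wt21 sperm it stood above 94.5% of genes in CG and above 97.4% in CHG, and in wt21 stem cells above 95.1% and 97.5%.

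CHH of RPP4 ran the other way from its CG. It was 2.26%, 2.16%, 2.51% and 3.15% in ago5, ago9, ago59 and wt21 sperm, against 5.35%, 5.66%, 5.05% and 4.74% in the stem-cell pools. All 4 sperm pools were lower, with differences between -3.50 points [-4.24, -2.77] in ago9 and -1.59 points [-2.26, -0.922] in wt21. The median gene differed in the opposite direction, by 0.520 points in wt21 and 0.480 points in ago9. Methylation in all 3 contexts together is the pattern of transposable elements, and 5 element rows with 3066 bases lie inside RPP4. These rows held 12.0% of its CG calls and 7.73% of its methylated CG calls in wt21 stem cells. Without them RPP4 had 70.2% [66.9, 73.4] CG in wt21 sperm and 64.9% [61.8, 68.0] in wt21 stem cells, and 51.4% and 42.2% CHG. In wt21 its levels were therefore at least as high outside the elements within it as in the whole gene. At its 3′ end RPP4 shares 123 bases with AT4TE42860, an element of 4753 bases whose CG level was 96.8% in wt21 sperm and 84.2% in wt21 stem cells.

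The other members formed a graded series, in which CG and CHG gave the same order in wt21 sperm down to RPP5. AT4G16900, a receptor gene with no symbol in the annotation, followed at 43.9% CG [41.6, 46.2] in wt21 sperm and 41.1% [39.2, 43.1] in wt21 stem cells. Its CHG level was 15.9% and 13.6% in these pools. It shares 1128 of its 4830 bases with AT4TE42950, an element of 4605 bases, and 421 of these are coding. AT4TE42950 had 97.4% CG and 43.5% CHG in wt21 sperm and 87.2% and 35.1% in wt21 stem cells. Next was AT4G16920 with 28.3% CG [25.9, 30.8] in wt21 sperm and 18.9% [17.1, 20.8] in wt21 stem cells, and 12.3% and 7.71% CHG. Without the 4 elements inside it AT4G16920 had 25.1% and 16.6% CG. SNC1, whose overactive snc1 allele keeps defence switched on, came after it with 17.0% CG [15.4, 18.8] in wt21 sperm and 11.0% [9.86, 12.2] in wt21 stem cells. Its CHG level was 6.53% and 4.30%, above that of 93.5% and 93.4% of genes, and no element row lies inside it.

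RPP5, named for downy mildew resistance in another accession, had 8.61% CG [7.28, 10.2] in wt21 sperm and 8.10% [6.98, 9.37] in wt21 stem cells. AT4G16960 had 6.92% [5.18, 9.20] and 7.17% [5.60, 9.14], so the intervals of these neighbours in the order overlapped in both cell types. They parted in CHG, where RPP5 had 4.42% in wt21 sperm and 4.56% in wt21 stem cells and AT4G16960 had 0.150% and 0.542%. AT4G16940 was nearly free of methylation with 0.981% CG in wt21 sperm and 0.308% in wt21 stem cells. AT4G16880, a short gene with 462 coding bases, had 1.01% CG in wt21 sperm. In wt21 stem cells it had 0 methylated of 423 CG calls, with an upper interval bound of 0.900%. The last 4 values lay below the medians of all genes, which were 3.94% CG in wt21 sperm and 2.23% in wt21 stem cells. AT4G16940 and AT4G16960, the pair most alike in coding sequence, thus differed in CG, and so did the pair AT4G16920 and RPP5. These levels are of whole gene rows, of 6546 and 3627 bases in the first pair and 7851 and 6523 in the second. They therefore do not compare the shared stretches alone.

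**Figure D1:**
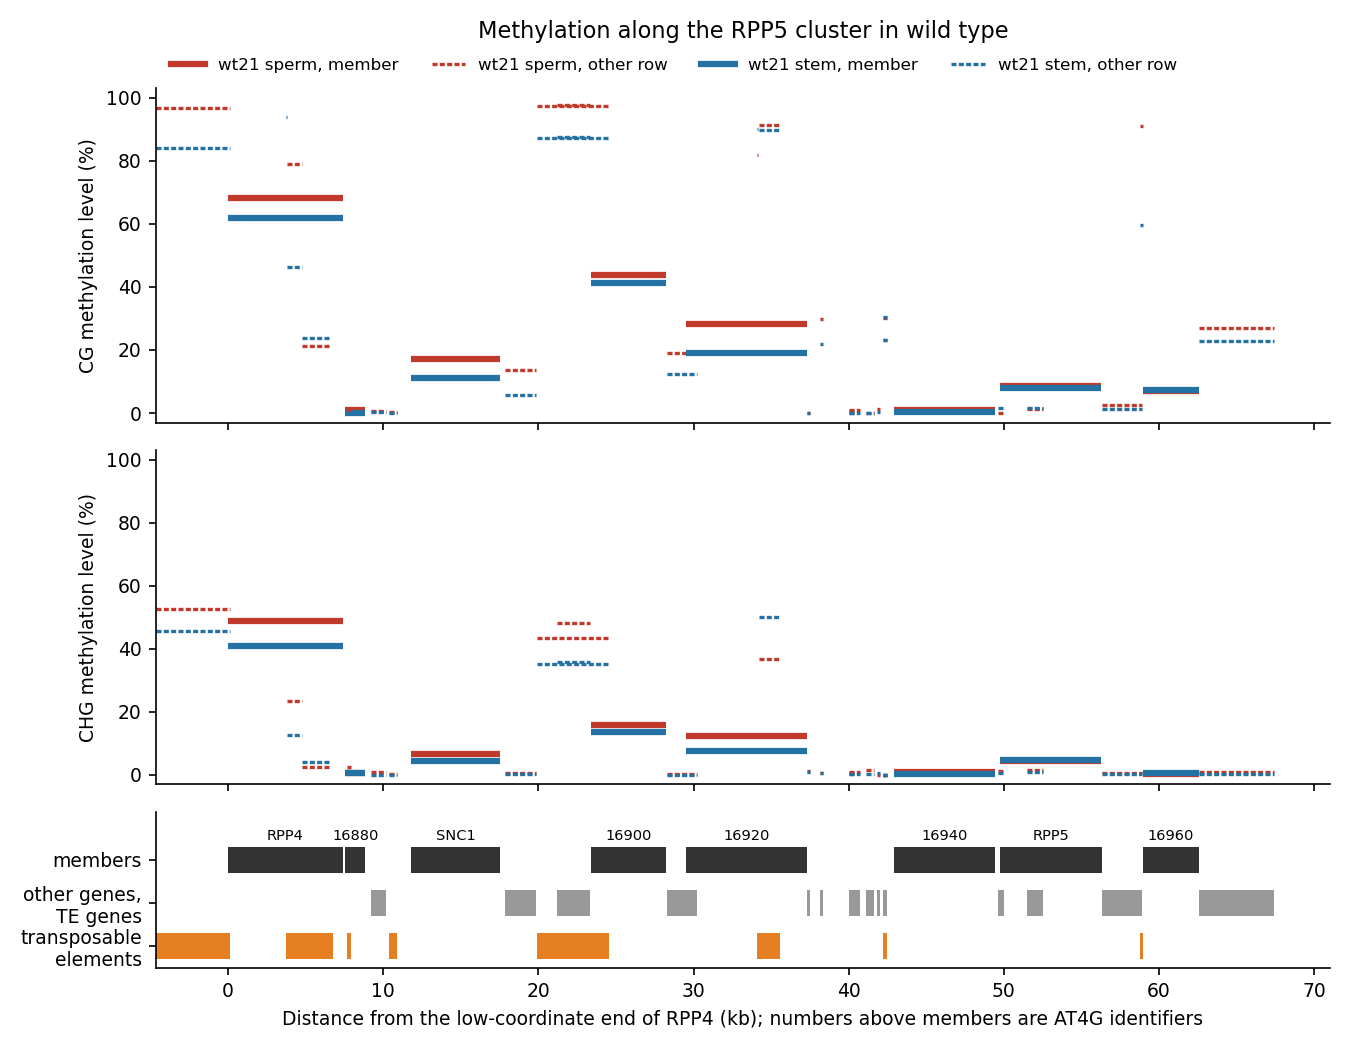
CG and CHG methylation levels in percent (upper panels) against distance in kb along the cluster in wild type, with sperm in red and stem cells in blue, solid lines for members and dotted lines for other rows, and the rows themselves in the lowest panel. RPP4 at the left end had 68.1% CG in wt21 sperm and 61.9% in wt21 stem cells, while AT4G16940 further right had 0.981% and 0.308%.

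The CHG level of the members was set beside that of their neighbours and of other immune genes. In wt21 sperm 3 of 8 members had at least 10% CHG, and in wt21 stem cells 2 of 8. Among all genes 5.86% and 5.57% reached that level. It was reached by 0 of the 12 other genes inside the cluster, by 0 of 13 genes within 50 kb before it and by 0 of 12 genes within 50 kb after it, in either wt21 pool. No test of this difference was made. In CG 4 of 8 members had at least 10% in either wt21 pool, beside 39.2% of all genes in wt21 sperm and 35.1% in wt21 stem cells. Among 30 other named receptor genes of this class only RPP7 reached 10% CHG, a downy mildew resistance gene with 41.7% CHG in wt21 sperm and 39.1% in wt21 stem cells. ADR1-L1, a helper receptor, followed with 1.97% and 1.10%, and LAZ5 with 1.17% and 0.911%. The median of these 30 genes was 0.903% CHG in wt21 sperm and 0.373% in wt21 stem cells, beside 5.48% and 4.43% for the members and 0.843% and 0.285% for all genes. Of 16 genes of EDS1-dependent immunity 0 reached 10%. The lipase-like partner PAD4 had 1.53% CHG in wt21 sperm and 0.763% in wt21 stem cells, the coactivator NPR1 0.688% and 0.678%, and the lipase-like hub EDS1 0.999% and 0.446%.

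The likeness of other genes to a member was measured as the mean absolute difference of level over 24 values, 8 pools in 3 contexts, among 26863 genes with at least 100 calls in each. The genes most like RPP4 were AT1G36325 at 3.23 points, AT2G30730 at 3.96 points and AT4G00070 at 4.22 points. Those most like SNC1 were AT2G21920 at 1.09 points, AT2G45380 at 1.10 points and HOS10 at 1.11 points. Those most like RPP5 were CYP76C6 at 0.783 points, HSD2 at 0.792 points and MEE57 at 0.864 points.

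**Figure D2:**
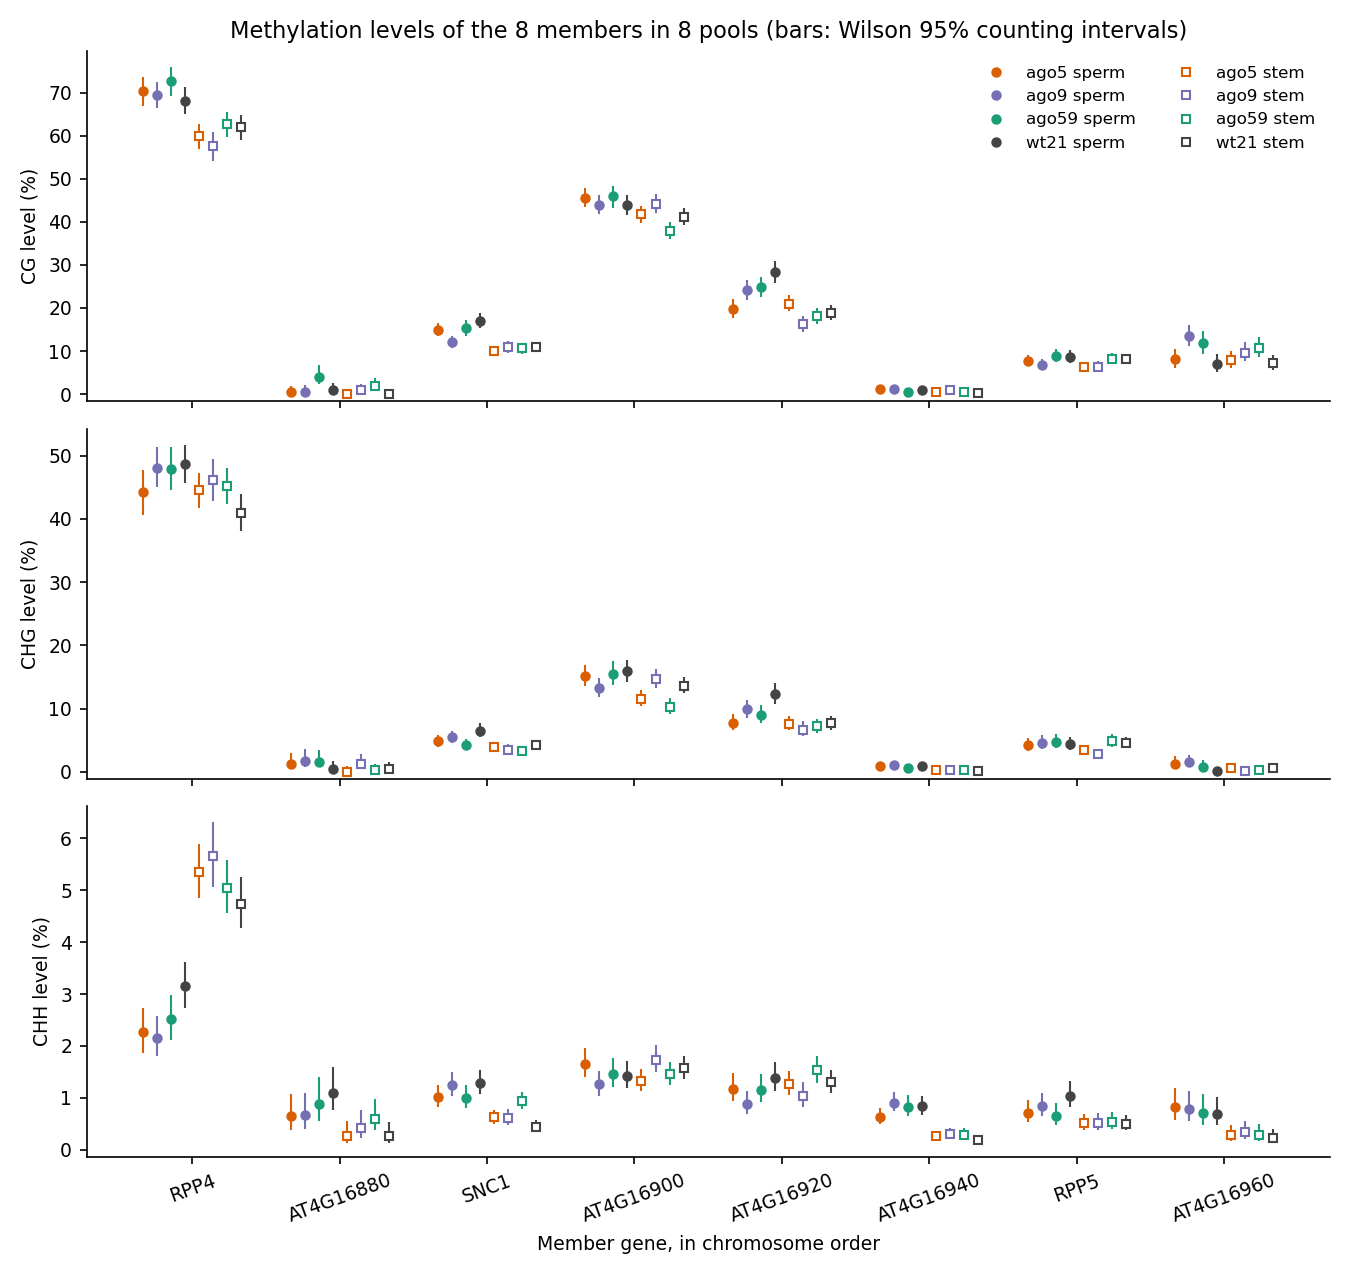
Methylation level in percent of each member in CG, CHG and CHH (top to bottom, each with its own scale), with filled circles for sperm pools, open squares for stem-cell pools and Wilson 95% counting intervals as bars. RPP4 was highest in each panel, and in CHH its stem-cell pools, 4.74% to 5.66%, lay above its sperm pools, 2.16% to 3.15%.

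Between cell types, most members were higher in sperm by small amounts. Summed over the 8 members, the sperm pool was higher than the stem-cell pool of the same genotype in CG. The difference was 1.64 points [0.573, 2.71] for ago5, 2.43 [1.35, 3.52] for ago9, 2.85 [1.71, 3.99] for ago59 and 3.33 [2.27, 4.40] for wt21. These sums weigh members by their calls, and RPP4 gave 680 of 9744 CG calls in ago5 sperm but 1083 of 12507 in ago5 stem cells. The sums therefore mix depth with level, which the intervals do not cover, and cannot be ranked by genotype. The median difference over members was 0.973, 0.779, 3.32 and 1.87 points in ago5, ago9, ago59 and wt21. Over all genes it was 0.953, 1.02, 0.996 and 1.02 points. In wt21 7 of 8 members were higher in sperm, and so were 81.8% of all genes. A difference of at least 10 points with at least 10 calls in each pool was called for 2 of 32 pairs of member and genotype in CG, against 8.01% of the pairs of all genes. Both were RPP4, higher by 10.5 points [5.95, 14.9] in ago5 and by 11.9 points [7.32, 16.4] in ago9. In ago59 and wt21 RPP4 was 9.98 points [5.44, 14.4] and 6.24 points [1.90, 10.5] higher in sperm. In CHG 0 of 32 pairs were called, against 2.57%, and in CHH 0 of 32, against 0.616%. These shares are close to or below the background.

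At a lower bar of 5 points 10 of 32 CG pairs were called, all higher in sperm, against 20.6% of the pairs of all genes. They were RPP4 in 4 genotypes, AT4G16920 in 3, SNC1 in 2 and AT4G16900 in ago59. AT4G16920 had 24.1% CG in ago9 sperm, against 16.2% in ago9 stem cells, and 24.8% in ago59 sperm, against 18.1%. In ago5 it had 19.8% in sperm and 21.0% in stem cells, a difference of -1.28 points [-4.16, 1.66] whose interval held 0. In CHG 2 of 32 pairs passed 5 points, against 4.56% of the pairs of all genes. RPP4 in wt21 was 7.74 points [3.49, 11.9] higher in sperm, and AT4G16900 in ago59 5.20 points [3.00, 7.46]. RPP5 differed between cell types by 0.509 points [-1.33, 2.42] CG in wt21, and AT4G16960 by -0.245 points [-2.87, 2.52].

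CHH of the members other than RPP4 was low, between 0.192% and 1.73% in all pools. AT4G16940 had 0.630%, 0.906%, 0.826% and 0.838% in ago5, ago9, ago59 and wt21 sperm, against 0.257%, 0.300%, 0.291% and 0.192% in the stem-cell pools. The CHH level of chloroplast rows, whose DNA is taken to be unmethylated, differed in the same direction. It was 1.34%, 4.56%, 1.06% and 1.37% in these sperm pools, from 18577 to 32063 calls, and 0.303% to 0.312% in stem-cell pools, from 7664120 to 9262714 calls. The part of incomplete conversion in CHH differences between cell types was not tested. CHH of RPP4 was lower in sperm and so differed in the opposite direction. The summed CHH of the cluster, also weighted by calls, was 0.262 points [0.138, 0.388] higher in wt21 sperm. It came to -0.803 points after correction for the chloroplast level and to -0.259 points after subtraction of the median gene. The sign after the chloroplast correction cannot be read. The chloroplast level of wt21 sperm, 1.37%, exceeded the summed cluster level, 1.36%, so the corrected sperm level fell below 0. In ago9 sperm the 2 levels were 4.56% and 1.12%.

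The mutants were set against wt21 of the same cell type. At 10 points, 0 of 48 pairs of member and mutant comparison were called in CG, against 2.03% of the pairs of all genes, 0 of 48 in CHG, against 1.31%, and 0 of 48 in CHH, against 0.274%. At 5 points 3 of 48 CG pairs were called, against 8.56%, and 1 of 48 CHG pairs, against 3.22%. No share of the members exceeded its background by either bar. Counting intervals lay on one side of 0 in 15 of 48 CG pairs, 7 above and 8 below. In CHG they did so in 13 of 48 pairs, 4 above and 9 below. Intervals were not counted in this way for all genes, so these shares have no background. With intervals that are too narrow, they do not show an excess in the members. All 3 mutants of a cell type are compared with the same wt21 pool, so a deviation of that pool shows in all 3.

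AT4G16920 in ago5 sperm held the largest difference between a mutant and wt21 of any member in any context. Its CG level was 19.8% in ago5, 24.1% in ago9 and 24.8% in ago59 sperm, against 28.3% in wt21 sperm. All 3 mutants were lower, with differences of -8.54 points [-11.8, -5.27] for ago5, -4.22 [-7.54, -0.883] for ago9 and -3.52 [-6.90, -0.130] for ago59. CHG was lower as well, with 7.77%, 9.90% and 9.03% in ago5, ago9 and ago59 sperm, against 12.3% in wt21 sperm. In stem cells ago5 stood on the other side at 21.0%, ago9 had 16.2% and ago59 18.1%, against 18.9% in wt21. SNC1 was lower than wt21 in all 3 mutant sperm pools too. Its CG level was 14.9% in ago5, 12.0% in ago9 and 15.3% in ago59 sperm, against 17.0% in wt21 sperm, and only the ago9 interval, -5.01 points [-7.25, -2.78], lay apart from 0. CHG of SNC1 was 4.81%, 5.47% and 4.24%, against 6.53% in wt21 sperm, and the intervals of ago5 and ago59 lay below 0. Because the wt21 sperm pool is common to these values, they do not show the mutants acting alike.

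Summed over the cluster, CHG was 8.45%, 9.45% and 9.29% in ago5, ago9 and ago59 sperm, against 10.5% in wt21 sperm. The differences were -2.04 points [-2.80, -1.28] for ago5, -1.04 [-1.81, -0.272] for ago9 and -1.20 [-1.99, -0.401] for ago59. The median difference over members was -0.458, -0.196 and -0.273 points, with 3, 4 and 3 of 8 members higher in the mutant, beside medians over all genes of -0.0570, -0.0199 and -0.0965 points. The sums weigh members by their calls, and these weights differ between the pools. RPP4, the highest member in CHG, gave 745 of 11065 CHG calls in ago5 sperm and 1021 of 11527 in wt21 sperm. The summed differences therefore mix depth with level, which their intervals do not cover. In stem cells the summed CHG differences were 0.226 points [-0.385, 0.839] for ago5, -0.184 [-0.813, 0.449] for ago9 and 0.107 [-0.515, 0.732] for ago59, and all 3 intervals held 0. Single members differed in stem-cell CHG, in both directions. AT4G16900 had 11.6%, 14.7% and 10.3% in ago5, ago9 and ago59 stem cells, against 13.6% in wt21, and the lowest, ago59, differed by -3.27 points [-5.08, -1.45]. RPP4 had 44.5%, 46.1% and 45.2%, against 40.9% in wt21, and its largest difference was 5.19 points [0.764, 9.60] in ago9.

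RPP4 and AT4G16900 were higher in CG than wt21 in all 3 mutant sperm pools, but in only some mutant stem-cell pools. AT4G16960 was the only member with higher CG than wt21 in all 3 mutants of both cell types. The mutants of a cell type share 1 wt21 pool, so a low value of that pool would give such patterns too. The share of all genes with these patterns was not counted. AT4G16960 is given for its values only. It had 8.05%, 13.4% and 11.8% CG in ago5, ago9 and ago59 sperm, against 6.92% in wt21 sperm, and 7.88%, 9.63% and 10.8% in ago5, ago9 and ago59 stem cells, against 7.17% in wt21 stem cells. The ago9 sperm pool was higher by 6.47 points [3.22, 9.70] and the ago59 sperm pool by 4.86 points [1.57, 8.23], while the ago5 interval held 0. These values rested on 577 to 823 calls per pool, and 47.7% of the 100-base windows of the gene recur elsewhere, those of its 1754-base run in AT4G16940 among them. RPP5 had 6.37%, 6.40% and 8.14% CG in ago5, ago9 and ago59 stem cells, against 8.10% in wt21. The intervals of ago5, -1.73 points [-3.36, -0.0890], and ago9, -1.70 points [-3.36, -0.0108], ended just below 0. AT4G16940 stayed between 0.308% and 1.13% CG in all 8 pools.

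**Figure D3:**
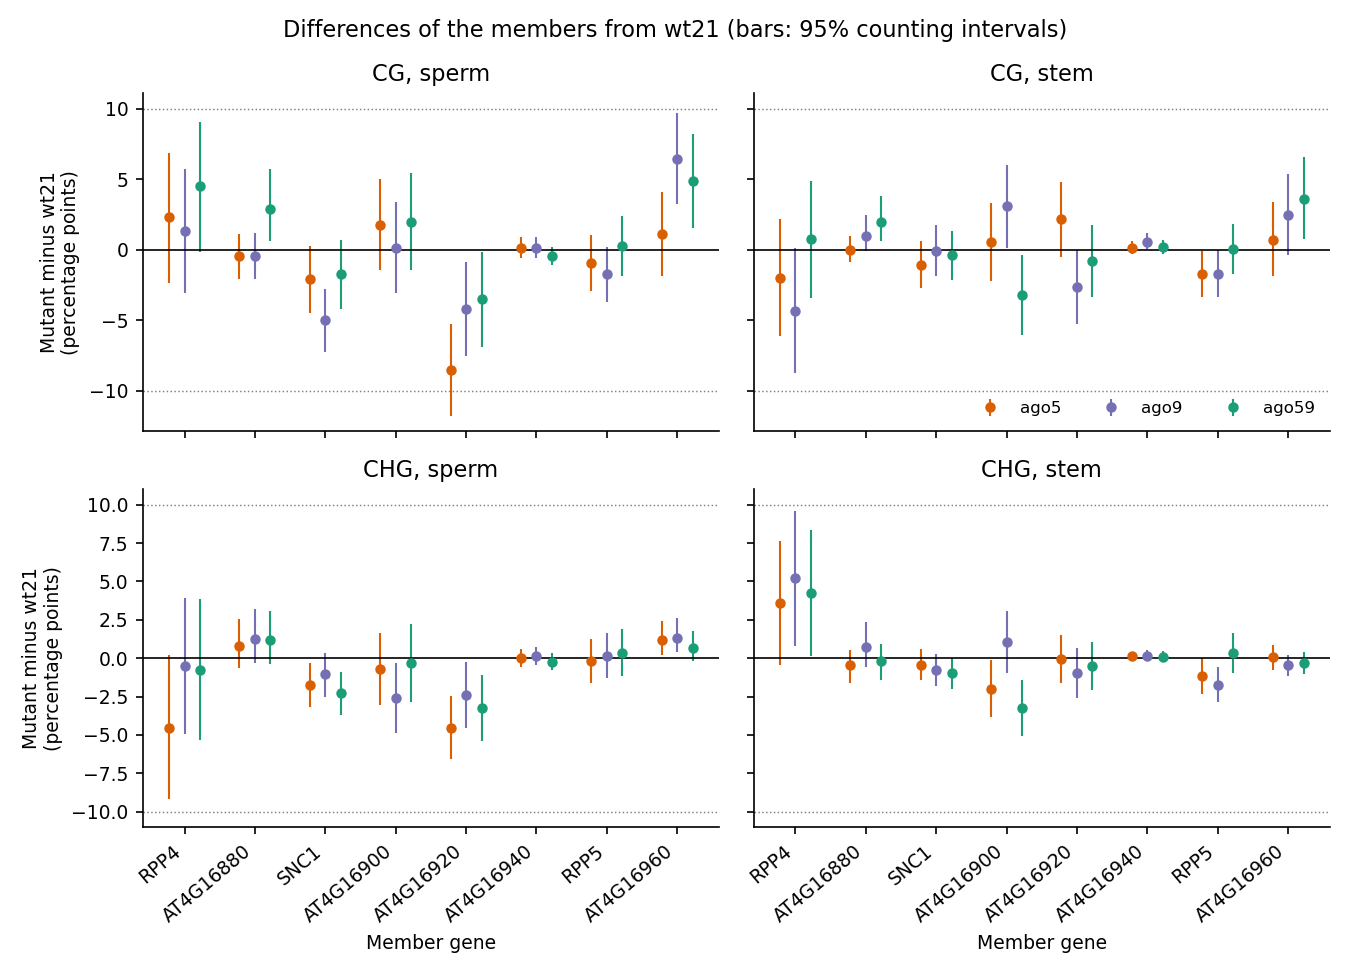
Mutant minus wt21 difference of each member in percentage points for CG (upper row) and CHG (lower row), in sperm (left) and stem cells (right), with Newcombe 95% counting intervals as bars and dotted lines at 10 points. No point reached a dotted line, and the lowest was AT4G16920 in ago5 sperm at -8.54 points.

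The 14 elements between the members ranged from 24 to 4605 bases, and 3 of them, AT4TE42885, AT4TE42890 and AT4TE43005, had under 10 CG calls in every pool. The others spread over the whole range. AT4TE42950, AT4TE43010 inside AT4G16920, and the short rows AT4TE42870, AT4TE43000 and AT4TE43015 had at least 66.7% CG in both wt21 pools, the short rows on 7 to 16 calls. AT4TE42895 inside AT4G16880 and AT4TE42905 had at most 1.11% in both. The transposable element gene AT4G16910, which lies within AT4TE42950 and shares its calls, had 97.7% CG and 48.3% CHG in wt21 sperm, against 87.4% and 35.9% in wt21 stem cells. AT4G16935, a transposable element gene of 226 bases, lies inside AT4TE43050 and shares its calls. AT4G16935 had 40.4% CG in ago59 stem cells, against 30.4% in wt21 stem cells, a difference that was not tested.

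Between cell types 14 of 33 element pairs were called in CG, against 52.4% of the pairs of all elements. Of these, 13 were higher in sperm, against 50.5%, and 1 was lower, against 1.92%. That split turned when each difference was centred on the median of all elements, with 6 higher and 9 lower of 15 called. In CHG 5 of 26 pairs were called, against 28.1%, and in CHH 5 of 42, against 13.9%. Of the CHG calls 2 were higher in sperm, against 17.8%, and 3 were lower, against 10.3%. These shares are near or below the background and show nothing particular to the elements of the cluster. AT4TE42875, which lies in RPP4 and mostly in an intron, was higher in CG in sperm in all 4 genotypes. Its CHG calls went both ways, with -21.1 points in ago9 and 10.8 points in wt21. It had 95.2%, 82.4%, 80.0% and 79.1% CG in ago5, ago9, ago59 and wt21 sperm, against 62.5%, 34.2%, 56.1% and 46.2% in the stem-cell pools, on 30 to 43 calls each. AT4TE42880, the intron element beside it, had 16.7%, 24.3%, 23.3% and 21.3% in the sperm pools, against 17.3%, 13.5%, 27.3% and 23.9% in the stem-cell pools. Only ago9 was higher in sperm, by 10.8 points [-7.34, 28.3]. AT4TE43050, which lies between AT4G16920 and AT4G16940, gave the lower call, with 21.2% in ago59 sperm and 32.3% in ago59 stem cells, and its interval held 0.

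In mutants 9 of 52 element pairs were called in CG, against 16.0%, 4 of 39 in CHG, against 21.6%, and 2 of 64 in CHH, against 9.38%. The long AT4TE42950, with 1062 to 1744 CHG calls per pool, had 40.2%, 40.1% and 39.5% CHG in ago5, ago9 and ago59 sperm, against 43.5% in wt21 sperm. In stem cells it had 31.4%, 35.1% and 28.4%, against 35.1% in wt21, and ago59 was lower by -6.73 points [-9.93, -3.49]. AT4G16900, which shares calls with it, had its lowest CHG in the same pool. AT4TE43010 had 13.3% CHG in ago5 sperm and 28.6% in ago59 sperm, against 36.8% in wt21 sperm, on 15 to 21 calls, and the ago5 interval [-47.6, 6.75] held 0.

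The element AT4TE43140 gave all CHH calls above other than those of AT4TE43000. It is a row of 171 bases at chr4:9547242-9547412 (TAIR10.1) between RPP5 and AT4G16960. Of its bases 99 lie in the untranslated start of the first exon of AT4G16957, 11 in the last exon of AT4G16960 past its coding sequence and 61 in neither gene. The stretch outside both genes, chr4:9547341-9547401, is shown on the plus strand with the cytosines of CHH context on that strand in capitals, since CHH is where the cell types differed.
AT4TE43140, stretch outside both genes: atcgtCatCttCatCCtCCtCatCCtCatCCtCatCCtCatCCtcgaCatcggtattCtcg
Its CHH sites are lopsided. All 21 of this stretch, and 59 of 62 in the whole element, lie on the plus strand.

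AT4TE43140 had 44.6%, 43.6%, 25.7% and 44.1% CHH in ago5, ago9, ago59 and wt21 sperm, against 0.980%, 5.00%, 0% and 0.741% in the stem-cell pools. The lowest sperm pool lay above the highest stem-cell pool by a wide gap. The differences were 43.6 points [37.1, 49.9] for ago5, 38.6 [30.9, 45.8] for ago9, 25.7 [19.0, 32.7] for ago59 and 43.4 [37.1, 49.5] for wt21. Among 16443 elements with at least 100 CHH calls in both wt21 pools, 12 had a larger difference between wt21 sperm and wt21 stem cells. Of 13124 elements with that depth in all 8 pools, 2 had a larger smallest difference over the 4 genotypes. The ago59 sperm pool was -18.4 points [-26.9, -9.22] from wt21, and 49 of the 13124 elements were at or below that value. Its CG level was 82.4%, 80.0%, 70.7% and 91.1% in ago5, ago9, ago59 and wt21 sperm, against 73.7%, 69.6%, 60.6% and 59.5% in the stem-cell pools, on 33 to 75 calls.

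The depth behind these values was small. The element had 115 to 270 CHH calls per pool, or 1.85 to 4.35 calls per CHH cytosine, so few reads gave each level. The chloroplast CHH level was 1.34%, 4.56%, 1.06% and 1.37% in ago5, ago9, ago59 and wt21 sperm, and 0.303% in wt21 stem cells. The part of conversion within single reads was not tested. Of its windows of 50 and 100 bases, 0 recurred elsewhere in the genome. AT4G16957, which shares 99 bases of the element, had 2.32%, 2.02%, 1.30% and 2.32% CHH in ago5, ago9, ago59 and wt21 sperm, against 0.203%, 0.287%, 0.334% and 0.204% in the stem-cell pools, and its CHH calls include part of the element's.

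**Figure D4:**
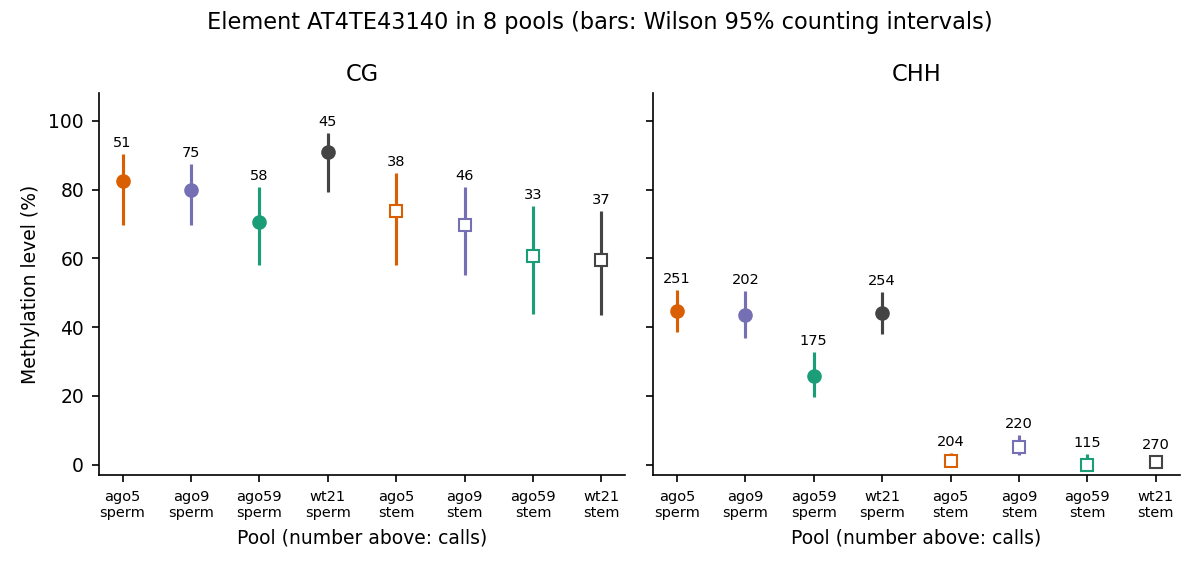
Methylation level in percent of AT4TE43140 in CG (left) and CHH (right) in 8 pools, with filled circles for sperm, open squares for stem cells, Wilson 95% counting intervals as bars and the number of calls above each point. In CHH the sperm pools lay between 25.7% and 44.6% and the stem-cell pools between 0% and 5.00%.

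AT4TE43000, an element of 95 bases at chr4:9522549-9522643 (TAIR10.1) in an intron of AT4G16920, gave the other CHH calls. It had 13.2% CHH in ago59 stem cells, 5 of 38 calls, against 0% in ago59 sperm, from 17 calls, and 0% in wt21 stem cells, from 15 calls, and both intervals of the differences held 0. It is shown on the plus strand with CG sites in capitals, because both of its CHH calls rest on the same ago59 stem-cell pool. Its 3 CG sites had 81.8% in wt21 sperm and 90.0% in wt21 stem cells.
AT4TE43000: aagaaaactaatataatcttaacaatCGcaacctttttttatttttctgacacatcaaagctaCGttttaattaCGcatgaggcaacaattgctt
With 10 to 11 CG calls in each of these pools, the 2 wt21 values were not distinguishable at this depth.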

How the data were processed

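The authors deposited, per the file headers, 2 whole numbers for each feature, context and group, the methylated cytosine calls and all cytosine calls. The deposited level columns were not used. Per the submitters' processing notes, Trim Galore, Bismark, bedtools 2.30.0 and TAIR10 were used. Their settings, and how replicates were pooled into 1 column, are not given in the sources used here. The columns headed wt were taken to be wt21. Of the columns of calls 48 were used, and 0 belonged to unmapped samples.

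Levels, intervals and differences were computed from the calls with Python 3.11.15, pandas 2.3.3, numpy 2.4.6 and scipy 1.17.1. A pair was called at 10 points and 10 calls in each pool, and the same rule was applied to all nuclear genes and elements for the background. Elements inside members were subtracted where whole. Members were all named, and elements with at least 10% CHG in any pool or a call. The members and lists were chosen with earlier results of these data known. Scripts were tested on simulated data. The planned test across replicates could not be used, since each group has 1 column. Alternatives were minimums of 5 and 20 calls, 5 points, a chloroplast correction, centring, and Fisher's exact test on the calls.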

Additional observations from a re-analysis of the deposited data

Results flagged for a closer look

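In AT4TE43140 the CG difference of ago9 from wt21 had opposite signs in the cell types. It was -11.1 points [-22.8, 2.90] in sperm, with 80.0% in ago9 and 91.1% in wt21, and 10.1 points [-10.1, 29.7] in stem cells, with 69.6% in ago9 and 59.5% in wt21. The sperm difference minus the stem-cell difference was -21.2 points. This difference was not tested, both counting intervals held 0, and the values rest on 37 to 75 calls per pool.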

How the results depend on the processing

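No paired analysis was possible because each group has 1 pooled column, and for the same reason leaving out replicates was not run. All 41 called differences kept their direction under the chloroplast correction and stayed within their counting intervals, as did 37 when centred on the median of their class, but these intervals are wide. In ago5, ago9 and wt21 sperm the chloroplast CHH level exceeded the summed CHH level of the members. The correction therefore takes off too much in those pools. Under the chloroplast correction element calls between cell types in CG numbered 11, because AT4TE42880 in ago9 came to 7.46 points and AT4TE43140 to 9.57 in ago9 and 9.89 in ago59. Centring took these ago9 differences to 0.816 and 0.440 points, and the calls to 6 higher and 9 lower. Centring took AT4TE42950 in CG between sperm and stem cells to 1.78 points in ago5, 0.783 in ago59 and 0.340 in wt21, and turned AT4TE43140 in CG between ago59 sperm and stem cells to -0.350 points. With 5 points in place of 10, calls of members between cell types numbered 10 in CG and 2 in CHG, and in mutants 3 in CG and 1 in CHG. Centring left 1 member call between cell types in CG. Calls of elements between cell types numbered 7 in CG with Fisher's exact test added. In CHG they numbered 2 at 20 calls, 8 at 5 points and 1 with Fisher's exact test, and in CHH 8 at 5 points. Calls of elements in mutants numbered 19 in CG at 5 points and 0 with Fisher's exact test. In CHG they numbered 8 at 5 calls, 2 at 20 calls, 11 at 5 points and 0 with that test. In CHH they numbered 5 at 5 calls, 1 at 20 calls and 1 with that test. Fisher's exact test compares the calls of 2 pools and not 2 genotypes. For the summed cluster the wt21 difference between sperm and stem cells in CHG was 2.61 points [1.91, 3.31]. The chloroplast correction took it to 1.65 points, outside that counting interval. In CHH the correction took the wt21 difference to -0.803 points, and subtracting the median gene gave -0.259 points. The cause of the other changes was not tested. Depth limits short elements most, and no difference here has been set against the spread between plants or libraries.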

Other observations

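The lncRNA genes AT4G06450 and AT4G06455, which overlap each other between AT4G16920 and AT4G16940, and the element AT4TE42895 inside AT4G16880 were singled out after their values were seen. AT4G06450 had 0%, 0.787%, 9.73% and 0.671% CG in ago5, ago9, ago59 and wt21 sperm, and 0.529%, 0%, 7.05% and 0% in the stem-cell pools of these genotypes. AT4G06455 had 0.532%, 1.15%, 6.55% and 1.01% in sperm and 0.417%, 0.654%, 5.42% and 0% in stem cells. AT4G06450 lies wholly inside AT4G06455, so the 11 methylated calls that both rows count in each ago59 pool are the same calls. AT4TE42895 had 1.22%, 1.25%, 10.0% and 1.11% in sperm and 0%, 0%, 5.60% and 0% in stem cells. In these 3 rows, of which AT4G06450 and AT4G06455 share their methylated ago59 calls, the ago59 pool was highest in both cell types. AT4G16880, which holds AT4TE42895, had 3.91% in ago59 sperm and 1.95% in ago59 stem cells, against 1.01% and 0% in wt21. None of these differences reached 10 points, and none was tested. AT4G06445, another short gene between AT4G16920 and AT4G16940, was also singled out after its values were seen. It had 30 of 75 CG calls methylated in ago59 sperm and 13 of 84 in ago59 stem cells, a difference of 24.5 points [10.7, 37.4]. That was the 1 call in 48 CG pairs between cell types of the other genes inside the cluster. Among all genes 8.01% of such pairs were called, and the difference was not tested.

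The row of the mCherry reporter, for which stem-cell nuclei were sorted, held 0 calls in all 8 pools, stem-cell pools included.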
